A study of Mus musculus with 4 samples.

Results

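The genes described here encode the plasminogen activators Plau and Plat, the activator receptor Plaur and 4 serpins, Serpine2, Serpinb2, Serpinb5 and Serpinb8, and they were followed across 4 mouse oral cancer cell lines. The 7 genes were listed by name from a table of 34721 entries with 34685 different gene identifiers, chosen by their FPKM (fragments divided by transcript length and sequencing depth) in these same lines, so all of their differences are descriptions and carry no test. Each of the 7 had an entry, and each passed the filter of at least 1 FPKM in at least 1 line that left 14155 genes. AOC3 and AOC11 were derived from oral tumors of 2 C57BL/6 mice given the carcinogen dimethylbenzanthracene on the buccal mucosa with a cotton swab, and AOC3-LN and AOC11-LN from lymph node metastases of the same respective mice. All 4 lines had been passed under the skin of a C57BL/6 mouse, depleted of fibroblasts and cultured in DMEM/F12 with serum. RNA of each line was sequenced as 1 library, so a difference between lines has no replicate check, and a difference between the mice is a difference between 2 animals.

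Plasminogen activators are serine proteases that cut plasminogen, a liver-made plasma protein, into plasmin, which degrades fibrin and matrix proteins and activates other proteases and latent growth factors. Urokinase, encoded by Plau, acts mainly at the cell surface while bound to its receptor Plaur, whereas the tissue-type activator Plat works best on fibrin. Serpins are inhibitors that trap a protease after it cuts an exposed loop, and the clade B members lack a classical signal peptide and act largely inside cells. In squamous epithelium the system is known for its part in wound repair and in the invasion of carcinomas.

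The libraries were scaled to an estimated 28400000 to 33800000 fragments. The 7 epithelial markers examined all reached 1 FPKM in at least 1 line and summed to between 2736 and 3494 FPKM per line, although the basal markers Krt5 and Trp63 were lower in the lines of mouse AOC11. Krt5 was at 499 and 275 FPKM in AOC3 and AOC3-LN and at 4.99 and 17.0 in AOC11 and AOC11-LN, and Trp63 at 1.69 and 2.10 against 0.0848 and 0.841 FPKM. The basal marker Krt14 went the other way, at 166 and 150 FPKM in AOC3 and AOC3-LN and 257 and 259 in AOC11 and AOC11-LN. The part of these basal markers in the differences between the mice was not tested. Fibroblast markers (7 genes) and endothelial markers (5 genes) summed to 0.246 to 1.05 FPKM and 0.328 to 0.481 FPKM, with no gene at 1 FPKM. The macrophage markers Adgre1 and C1qa and 4 of 5 T cell markers were listed at 0 in every line, and the macrophage sum of 9.29 to 27.0 FPKM came almost entirely from Cd68 and Csf1r. Csf1r was at 20.8 FPKM in AOC11 and 6.01 in AOC11-LN and under 1 FPKM in the AOC3 lines, and its part in the differences between the mice was not tested. Neutrophil markers summed to 1.34 to 2.87 FPKM.

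The promoters of 3 members are shown because these genes differed most between the lines and had a RefSeq window on GRCm38.p6, the assembly that mm10 names. Of the 7 members, 5 had such a window, and Serpinb2 had windows for 2 starts. Each sequence runs from 250 bases before the RefSeq transcript start to 30 bases after it, on the strand of the gene. Capitals mark matches to TGANTCA, the AP-1 motif, to TATAAA, the TATA box, and to GGGCGG, the GC box bound by Sp1, each searched on both strands. They are Serpine2 (chr1:79858636-79858915, minus strand), Serpinb2 (chr1:107511173-107511452, plus strand) and Serpinb8 (chr1:107589756-107590035, plus strand):
Serpine2: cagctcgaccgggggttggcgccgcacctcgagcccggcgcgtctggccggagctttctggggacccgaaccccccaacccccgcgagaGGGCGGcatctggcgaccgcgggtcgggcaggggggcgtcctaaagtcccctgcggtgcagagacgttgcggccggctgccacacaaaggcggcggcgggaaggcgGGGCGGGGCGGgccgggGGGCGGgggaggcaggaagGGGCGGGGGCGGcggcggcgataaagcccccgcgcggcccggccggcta
Serpinb2: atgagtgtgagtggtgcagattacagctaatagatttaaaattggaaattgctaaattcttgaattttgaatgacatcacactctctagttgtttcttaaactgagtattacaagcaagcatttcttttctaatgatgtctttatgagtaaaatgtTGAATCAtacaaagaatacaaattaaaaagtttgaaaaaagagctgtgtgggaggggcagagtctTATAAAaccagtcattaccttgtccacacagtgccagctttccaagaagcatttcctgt
Serpinb8: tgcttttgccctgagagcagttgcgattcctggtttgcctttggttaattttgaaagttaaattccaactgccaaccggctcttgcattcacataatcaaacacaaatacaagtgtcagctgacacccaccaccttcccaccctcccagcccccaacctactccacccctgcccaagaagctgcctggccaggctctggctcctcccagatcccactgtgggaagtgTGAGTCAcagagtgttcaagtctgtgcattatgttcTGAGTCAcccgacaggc

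The Serpine2 window held 6 GC boxes and neither of the other motifs, and 78.6% of its bases were G or C, against a median of 52.5% over 32851 windows. Its GC boxes at -55 and -50 share a base. The Serpinb2 window, with 33.9% G or C, held an AP-1 match at -94 and a TATA box at -29. From its other RefSeq start, at 107511510, the same matches lie at -181 and -116, and that window has 39.3% G or C. In Serpinb8, AP-1 matches began at -23 and at 14, and no TATA or GC box was found. Plaur had an AP-1 match at -69 beside 3 GC boxes, and Serpinb5 had an AP-1 match at -140 and a GC box at -58. Over all windows of this length, 7.46% held the AP-1 motif, 13.1% the TATA box, 34.7% at least 1 GC box and 1.20% at least 6 GC boxes. A match describes the letters in these windows, and binding of any factor was not measured.

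**Figure D1:**
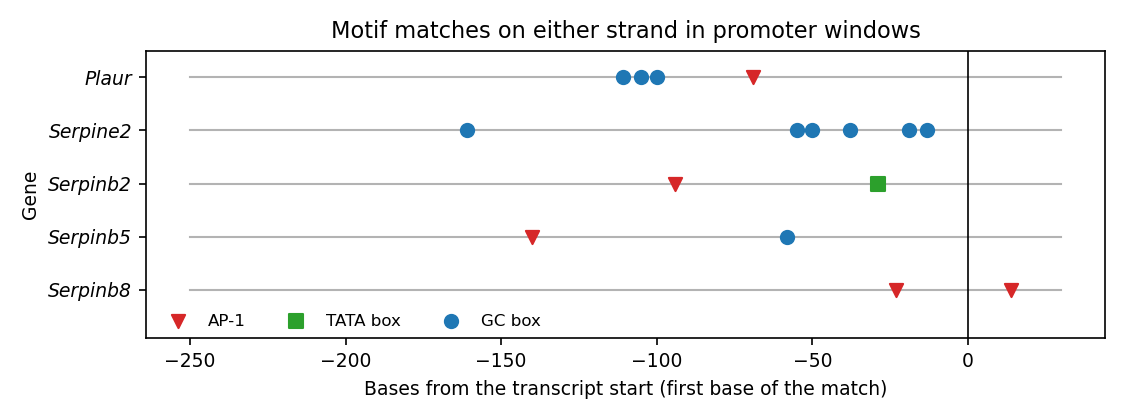
Positions of AP-1, TATA box and GC box matches in the promoter windows of 5 members, in bases from the RefSeq transcript start (for Serpinb2, the start at 107511423). Serpine2 shows 6 GC boxes and no AP-1 or TATA match, while Plaur, Serpinb2, Serpinb5 and Serpinb8 each show at least 1 AP-1 match.

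Plau, the urokinase gene, was by far the most abundant member. It is ENSMUSG00000021822.3 on chromosome 14 (20836660 to 20843385, plus strand of mm10), and its longest coding transcript has 11 exons and 2342 bases. Mouse AOC3 gave 1266 FPKM in the primary and 737 in the lymph node line, and mouse AOC11 gave 988 and 612. These values placed it between the 78th and the 171st of the 14155 genes ordered by FPKM in a line. In each mouse the lymph node line was the lower one, by log2 differences of -0.74 for AOC3-LN and -0.72 for AOC11-LN, neither beyond the threshold of a log2 difference above 1 or below -1. In these bulk libraries a smaller share of cells with the transcript and less of it per cell cannot be told apart. The level in the AOC3 lines differed from that in the AOC11 lines by a log2 difference of 0.39, with the primary line of each mouse above the lymph node line of the other.

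Plaur, which anchors urokinase to the cell surface (ENSMUSG00000046223.10, chromosome 7, 24462484 to 24475968, plus strand), varied least. Its levels were 52.4 FPKM (AOC3), 83.3 (AOC3-LN), 81.0 (AOC11) and 57.6 (AOC11-LN). The highest value was 1.59 times the lowest, and the lines of the mice overlapped, with a log2 difference between the mice of -0.01. The receptor was higher in the lymph node line of mouse AOC3, by 0.62, and lower in that of mouse AOC11, by -0.50. The FPKM ratio of Plau to Plaur was highest in AOC3, at 24.2, and 8.85 to 12.2 in the other lines.

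Plat, the tissue-type activator (ENSMUSG00000031538.6, chromosome 8, 22757727 to 22782844, plus strand), was expressed at 11.4 and 9.36 FPKM in the primary and lymph node lines of mouse AOC3 and at 3.46 and 2.23 FPKM in those of mouse AOC11. Both AOC3 lines were above both AOC11 lines, and the log2 difference between the mice was 1.68. At each site the direction was the same, at 1.44 between the primary lines and 1.92 between the lymph node lines. Plat was the scarcer activator in every line: Plau exceeded it by 78.8 to 286 times in FPKM.

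Serpine2 encodes protease nexin-1, a secreted serpin that inhibits thrombin, urokinase and the tissue-type activator. The gene (ENSMUSG00000026249.10, chromosome 1, 79794197 to 79861180, minus strand) had 13.9 and 15.1 FPKM in AOC3 and its lymph node line, but 0.285 and 1.71 FPKM in AOC11 and its lymph node line. The lines of mouse AOC3 were alike and far above those of mouse AOC11, with a mean FPKM 14.5 times as high and a log2 difference of 3.15. The value in AOC11 rests on about 20 fragments, with an exact 95% Poisson interval of 0.174 to 0.441 FPKM that covers counting error only. The interval in AOC11-LN, 1.41 to 2.05 FPKM, lay above it. On the scale of log2(FPKM + 1) this lymph node difference was 0.82, which understates the 5.99-fold ratio of a gene so low. It passed the threshold without quantile normalization, at 1.08, with scaling by the median, at 1.06, and with a pseudocount of 0.1, at 1.73. With that pseudocount the difference between the mice was 4.20.

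Serpinb2, plasminogen activator inhibitor 2, set the AOC3-LN line apart. The gene (ENSMUSG00000062345.10, chromosome 1, 107511423 to 107535478, plus strand) reached 162 FPKM there, against 19.7 in AOC3, 8.47 in AOC11 and 4.65 in AOC11-LN. AOC3-LN stood 8.27 times above its primary line, a log2 difference of 2.97, while AOC11-LN was lower than its own primary line, with a difference of -0.83. The level ran from the 30.8th percentile of the genes tested in AOC11-LN to the 95.6th in AOC3-LN. Between the mice the log2 difference was 3.06. Its size rested on which AOC3 line was used: without AOC3-LN it was 1.57, and without AOC3 it was 4.54, while without AOC11 or AOC11-LN it was 3.47 or 2.64. Between the primary lines alone it was 1.16.

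Serpinb5 encodes maspin, a clade B serpin of epithelium that is not a classical protease inhibitor. It (ENSMUSG00000067006.12, chromosome 1, 106861173 to 106883348, plus strand) stood at 36.5 FPKM in AOC11 and 25.5 in AOC11-LN, compared with 16.3 and 22.4 FPKM in the corresponding lines of mouse AOC3. Both AOC11 lines were above both AOC3 lines, but the log2 difference of -0.59 did not pass the threshold. The lymph node lines differed from each other by only -0.09 and the primary lines by -1.09, since the lymph node line was higher than the primary line in mouse AOC3, by 0.49, and lower in mouse AOC11, by -0.51.

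Serpinb8, an inhibitor of furin and of trypsin-like proteases, was the member lower in the AOC3 lines beyond the threshold. The gene (ENSMUSG00000026315.13, chromosome 1, 107590006 to 107610484, plus strand) had 19.1 FPKM in AOC11 and 10.7 in AOC11-LN, compared with 5.30 and 4.79 FPKM in AOC3 and its lymph node line. Both AOC11 lines were above both AOC3 lines, with a log2 difference of -1.26 for the AOC3 lines minus the AOC11 lines. It depended on AOC11, without which it was -0.87 and within the threshold. The AOC11-LN level lay below that of AOC11, with a log2 difference of -0.77, while the AOC3 pair differed by -0.01.

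**Figure D2:**
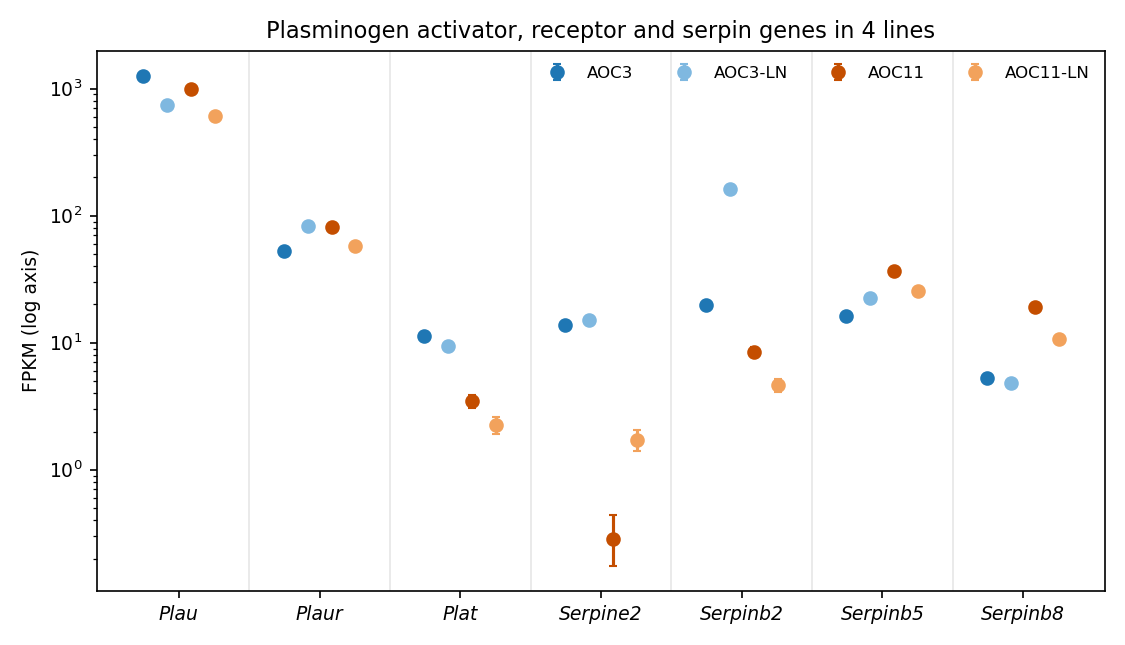
FPKM on a log axis of the 7 genes in AOC3, AOC3-LN, AOC11 and AOC11-LN, 1 library each, with exact 95% Poisson intervals for counting error of the estimated fragments. Plau lies between 612 and 1266 FPKM in all lines, whereas Serpine2 runs from 0.285 to 15.1 FPKM and Serpinb2 from 4.65 to 162 FPKM.

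Counting error was small beside most of these differences. For the 7 genes in 4 lines, the estimated fragments ran from 20 for Serpine2 in AOC11 to 92670 for Plau in AOC3, and the next fewest were 114. Neighbouring levels whose counting intervals overlapped were Plaur in AOC3-LN and AOC11, Serpine2 in AOC3 and AOC3-LN, and Serpinb8 in AOC3 and AOC3-LN, so their order is not resolved even within these libraries. The spread between cultures of the same line was not measured.

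Between the mice, 4 of the 7 genes passed the threshold, Plat, Serpine2 and Serpinb2 higher in the AOC3 lines and Serpinb8 lower, where 11.1% of all genes tested passed, 5.11% higher and 6% lower. Since the list was made with these values in view, nothing is read from its share. The median log2 difference over the 7 genes was 0.39, beside 0.01 over all genes tested. Between AOC3-LN and AOC3, Serpinb2 alone of the 7 passed (5.53% of all genes tested, 2.11% higher and 3.42% lower), and the median was 0.20 beside 0.02. Between AOC11-LN and AOC11 no member passed (8.1% of all genes tested, 4.96% higher and 3.14% lower). In that pair Serpine2 was higher in the lymph node line and the other members were lower, each within the threshold, and the median was -0.65 beside -0.02. The share of all genes lower by any amount was not counted, and nothing is read from these directions or from the median. The comparison between the mice uses the same libraries as the comparisons within them, so the 3 sets of values are not independent.

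**Figure D3:**
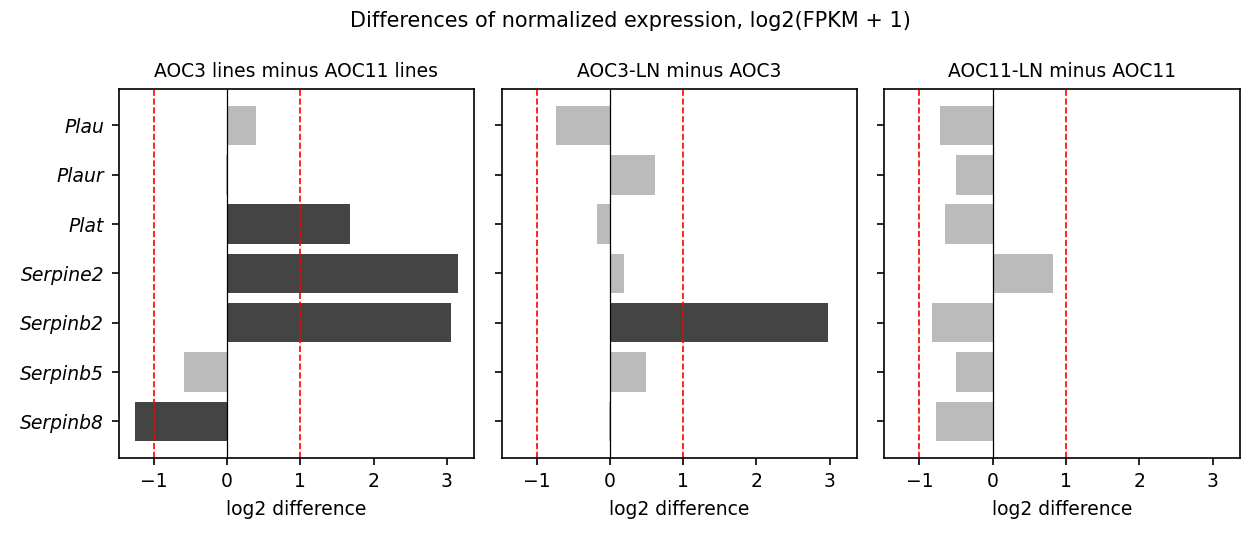
Log2 differences of normalized log2(FPKM + 1) for the 7 genes, AOC3 lines minus AOC11 lines and lymph node line minus primary line in each mouse; dark bars lie beyond the dashed thresholds of 1 and -1. Serpine2 and Serpinb2 have the longest bars between the mice, at 3.15 and 3.06, and Serpinb2 has the only dark bar between AOC3-LN and AOC3, at 2.97.

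Serpine2 and Serpinb2 both inhibit urokinase and were set against Plau on the FPKM scale. Summed, the 2 inhibitors came to 178 FPKM in AOC3-LN, 33.5 in AOC3, 8.75 in AOC11 and 6.36 in AOC11-LN, so both AOC3 lines were above both AOC11 lines. Serpinb2 made up the larger share of the sum in every line, from 58.6% in AOC3 to 96.7% in AOC11, and 91.5% in AOC3-LN. The FPKM ratio of Plau to this sum was 113 in AOC11 and 96.3 in AOC11-LN, 37.8 in AOC3 and lowest, at 4.15, in AOC3-LN, where Plau was lower and Serpinb2 higher than in AOC3. The sum leaves out other inhibitors of urokinase. These are transcript levels, and Serpinb2 protein stays largely in the cell, so the ratio does not measure active protein.

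**Figure D4:**
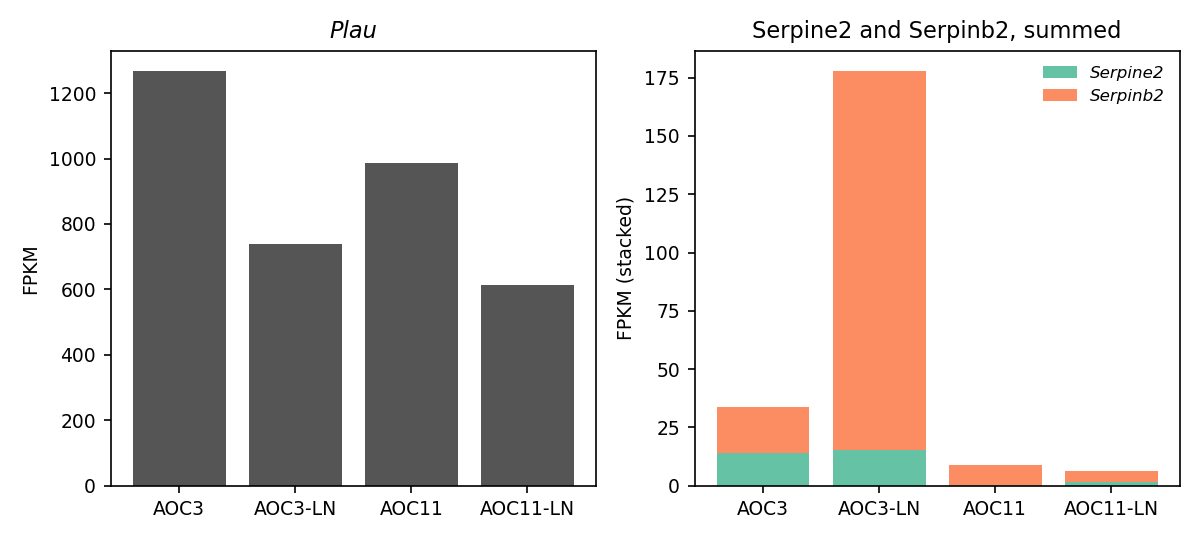
FPKM of Plau (left) and stacked FPKM of its inhibitors Serpine2 and Serpinb2 (right) in the 4 lines, with axes that start at 0 and differ in scale. The inhibitor bar of AOC3-LN, at 178 FPKM, stands above the others, of 6.36 to 33.5 FPKM, and consists mostly of Serpinb2.

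Other genes of the plasminogen system were taken from a list of 37, of which 35 had an entry and 20 passed the filter. The list was written with earlier results of these data known, so nothing is read from its shares or medians. Plg, plasminogen itself, was listed at 0 in every line, and Serpinf2, the main plasmin inhibitor, Serpini1, the neuronal inhibitor of Plat, Mrc2, a collagen receptor that associates with Plaur, and Vtn, the matrix protein vitronectin that Plaur binds, stayed under 1 FPKM. The cell surface proteins that dock plasminogen were abundant: Anxa2 had 1134 to 1809 FPKM and its partner S100a10 826 to 1320 FPKM, with no difference beyond the threshold. The plasminogen receptor Plgrkt ranged from 13.2 FPKM in AOC3 to 33.7 in AOC11-LN. Lrp1, which clears complexes of activators with their inhibitors, ranged from 4.91 FPKM in AOC11 to 11.2 in AOC11-LN. Between the mice, 4 of the 20 genes passed, 2 higher and 2 lower in the AOC3 lines, where 11.1% of all genes tested passed, and the median was 0.05 beside 0.01 over all genes. The higher ones were Procr, the endothelial protein C receptor (2.04), and Thbd, which binds thrombin (1.60), and the lower ones Lrpap1, a chaperone of Lrp1 (-1.65), and Itgb5, an integrin chain for vitronectin (-1.29). Without AOC3-LN 2 of the 20 passed: Procr was then higher by 1.40 and Lrpap1 lower by -1.36, while Thbd, at 0.75, and Itgb5, at 0.065, were within the threshold.

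In AOC3-LN, Thbd was higher than in AOC3 by 1.72 and Procr by 1.27, while Itgb5 was lower by -2.72 and the coagulation initiator F3 by -1.66. These were 4 of the 20 genes, where 5.53% of all genes tested passed, and the list median was -0.06. Thbd levels were 5.06 and 18.1 FPKM in this pair and Procr levels 188 and 437, so both shared with Serpinb2 the highest level in AOC3-LN. In AOC11-LN, 2 of the 20 passed, with a list median of -0.14 and 8.1% of all genes tested past the threshold. The endocytic receptor Vldlr was higher, by 1.45, and F3 was lower, by -1.32. Vldlr was low in both lines of this pair, at 0.338 FPKM in AOC11 and 3.27 FPKM in AOC11-LN. F3 was the gene of the list that was lower beyond the threshold in both lymph node lines. Eno1 and Eno1b, which share 59.0% and 73.4% of their 100-base words with other genes, have uncertain values.

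**Figure D5:**
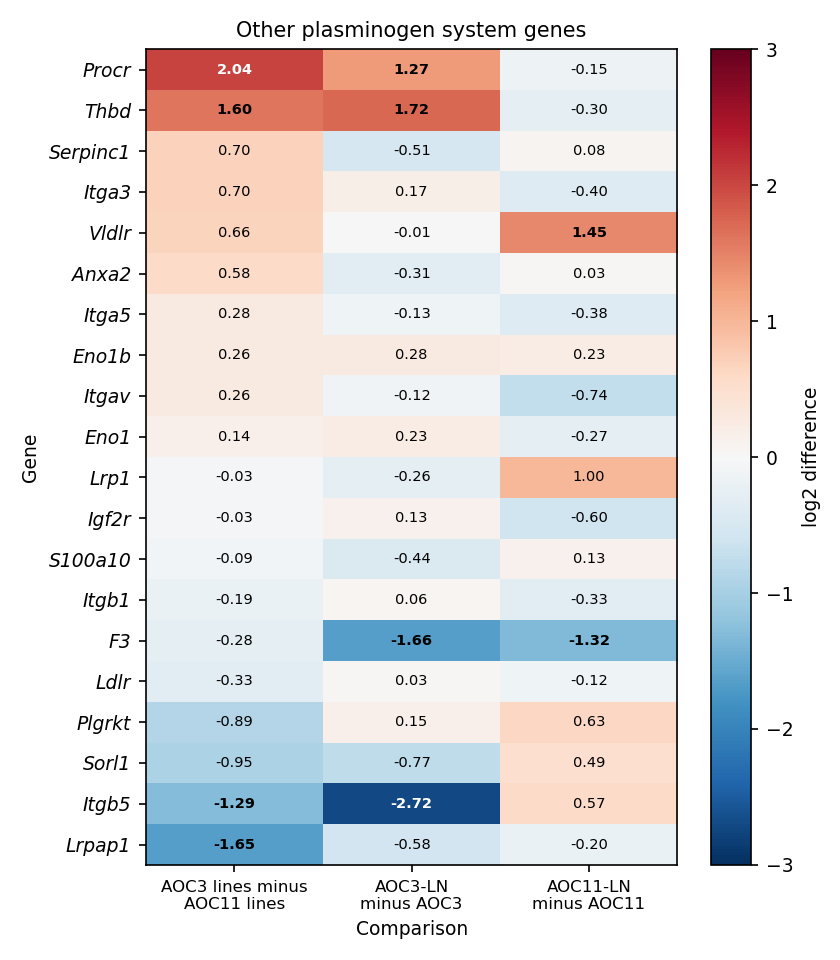
Log2 differences of the 20 plasminogen system genes that passed the filter (rows) in the 3 comparisons (columns), with values beyond 1 or -1 in bold. Procr and Thbd are higher in the AOC3 lines and in AOC3-LN, and F3 is lower in both lymph node columns (-1.66 and -1.32).

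Among 35 pericellular serine proteases, their receptors and inhibitors, 33 had an entry and 13 passed the filter. Between the mice, 5 were higher and 1 lower in the AOC3 lines, where 5.11% of all genes tested were higher and 6% lower, and the median was 0.75 beside 0.01 over all genes. This list too was written with earlier results of these data known, so nothing is read from its shares or medians. The median depended on the line left out: it was 0.81 without AOC3, 0.92 without AOC3-LN, 0.17 without AOC11 and 1.13 without AOC11-LN. Hgfac, which activates hepatocyte growth factor, had 12.5 to 15.9 FPKM in the AOC3 lines and 0.438 to 0.654 in the AOC11 lines, a log2 difference of 3.35. F2rl1 and F2r, the protease-activated receptors 2 and 1, were higher by 3.07 and 2.26, the membrane protease Tmprss11e by 2.39 and Prss22 by 1.39, and Prss23 was lower by -1.13. Prss23 was within the threshold without AOC3-LN, at -0.62, and without AOC11, at -0.92. Slpi, a secreted inhibitor of leukocyte elastase, was lower in both lymph node lines, with 43.1 against 3.18 FPKM in mouse AOC3 and 44.3 against 12.2 in mouse AOC11. In AOC3-LN only Slpi (-3.30) and Prss23 (-1.02) of the 13 passed, where 5.53% of all genes tested did. In AOC11-LN, Slpi (-1.79) was lower, and Prss8 (1.17), which encodes prostasin, and F2r (1.08) were higher, 3 of the 13 beside 8.1% of all genes tested.

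The clade B serpins lie in 2 clusters. On chromosome 1, between 106861173 and 107610484, the table has 11 protein-coding members, and Serpinb5, Serpinb2 and Serpinb8 were the 3 that reached 1 FPKM in any line. Another 6 were listed at 0 in every line, and the remaining 2 reached at most 0.168 FPKM. Serpinb2 and Serpinb8 are 54527 bases apart on the same strand, and in AOC3-LN their log2 differences from AOC3 were 2.97 and -0.01. Serpinb10, annotated as a polymorphic pseudogene, overlaps Serpinb2 by 6476 bases on the same strand and was highest in AOC11-LN, at 1.99 FPKM, where Serpinb2 was lowest, and had 0.791 FPKM in AOC3-LN. On chromosome 13, 4 of 14 clade B members reached 1 FPKM. Of these, Serpinb6a had 224 to 308 FPKM, and the granzyme inhibitor Serpinb9 had 3.52 FPKM in AOC3-LN and at least 7.98 FPKM elsewhere. Serpinb6b was lower in the AOC3 lines by -1.56 and in AOC3-LN by -1.36, and its difference between the mice was within the threshold without AOC3-LN, at -0.88. Its level was 3.32 FPKM in AOC3 and 0.577 in AOC3-LN. Serpinb9b was lower in AOC11-LN by -2.23, with 6.14 FPKM in AOC11 and 0.646 in AOC11-LN. It was also low in AOC3, at 1.23 FPKM, and in AOC3-LN, at 0.961. None of the 100-base words of these 4 or of the 7 genes occurs in a transcript of another gene.

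The serpins of other clades that passed the filter were 3 of the 28 with an entry, and Serpinh1 was the abundant one. Serpinh1, a collagen chaperone that inhibits no protease, was at 2.65 FPKM in AOC3-LN, 38.7 in AOC3, 144 in AOC11 and 180 in AOC11-LN. It was lower in the AOC3 lines by -3.67 and in AOC3-LN by -3.34, against a difference of 0.30 in AOC11-LN, an order of lines opposite to that of Serpinb2. The difference between the mice was -2.01 without AOC3-LN and -5.34 without AOC3. Serpinc1 and Serpind1 stayed at or under 1.27 FPKM.

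Genes with a pattern most like that of a member were sought among 11366 protein-coding genes, by the root mean square distance over the 4 lines between log2 values from which the mean over the lines had been taken. Serpine2 was followed most closely by Ckb (0.11), Cxxc5 (0.19) and Tns4 (0.20). Ckb, brain-type creatine kinase, was at 58.6 and 59.6 FPKM in the AOC3 pair and at 4.52 and 9.92 in the AOC11 pair. Serpinb2 had Cpa4 (0.33), Sema7a (0.39) and Nptx1 (0.48) as its nearest genes, each between 21.2 and 22.8 FPKM in AOC3-LN and under 5 FPKM elsewhere. Plat was nearest to Hist1h3c (0.05), Gbe1 (0.07) and P3h2 (0.07), and Serpinb8 to Hist1h2bg (0.03), Slc45a3 (0.05) and Tmc4 (0.05). Sema7a, Nptx1 and P3h2 in the AOC11 lines, Cpa4 in AOC11-LN and Tmc4 in the AOC3 lines were under 1 FPKM. At such levels the pseudocount of 1 shrinks ratios. Nptx1 was at 4.44 FPKM in AOC3 and 0.0469 in AOC11, where Serpinb2 had 19.7 and 8.47. For Plau, whose log2 values ranged over 1.12, the nearest genes were Il15ra (0.05), Ccdc122 (0.07) and Ift88 (0.09). For Serpinb5, with a range of 1.09, they were Gde1 (0.03), Gm28048 (0.04) and Kif13a (0.05). With 4 lines many genes share any given order, and the distances describe these libraries.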

How the data were processed

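RNA of 4 mouse lines was sequenced as paired-end stranded mRNA libraries, 1 per line. Per the labels and the methods, the authors trimmed reads with Trim Galore, mapped them to mm10 with TopHat2 and estimated FPKM by Cufflinks with the GENCODE M21 annotation, at default settings. Tool versions and the strand setting are not given in the sources used here. The deposited FPKM values are on a linear scale. Identifiers were matched to GENCODE M21 for symbols and coordinates, and of the 29 identifiers with more than 1 entry the entry with the highest mean was kept.

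After a pseudocount of 1 was added, FPKM values were put on the log2 scale and all entries were quantile-normalized. Genes under 1 FPKM in every line were then dropped, and genes with a log2 difference beyond 1 or -1 were counted. limma 3.58.1 in R 4.3.3 was run as an alternative for all genes, taking both lines of each mouse as its replicates. Fragments were estimated from the step of low values of genes with 1 transcript: 63.3% to 67.1% fell within 0.1 of a whole number, against 20% by chance. Fragments per gene use its longest coding transcript and are approximate. Other pseudocounts, scalings, filters, fold thresholds and fits without 1 line were tried. The steps were also run on simulated data. In the simulated comparison between mice, lines of the same mouse differed by random noise only. It therefore does not show how the counts behave where such lines truly differ.

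The members and gene lists were chosen with earlier results of these data known. Named genes are the members, the 3 genes of each list with the largest difference in each comparison, a fixed set of binding partners and inhibitors, and the 3 genes nearest in pattern to members with a log2 range over 1. Other list genes past the threshold were named after their values were seen. Results for 1 list gene are not reported here, and it is left out of the list counts.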

Additional observations from a re-analysis of the deposited data

Results flagged for a closer look

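The lymph node shifts of Serpinb2, Plaur and Serpinb5 went one way in AOC3-LN and the opposite way in AOC11-LN. The difference was not tested because each line is 1 library. How many of all genes tested shifted in opposite directions was not counted, so nothing is read from the number of members that did. Of these shifts, only that of Serpinb2 in AOC3-LN passed the threshold. For Serpinb2 the shift in AOC3-LN exceeded that in AOC11-LN by a log2 difference of 3.80, from 2.97 and -0.83. For Plaur the shifts of 0.62 and -0.50 differed by 1.12, and for Serpinb5 those of 0.49 and -0.51 differed by 0.99.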

How the results depend on the processing

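No member's difference beyond the threshold changed sign under any alternative tried. Between the mice, 4 members passed under each scaling, filter and pseudocount tried, and 3 to 4 when a line was left out, Serpinb8 being the one lost without AOC11. The count of all genes there was 1573, and 1456 to 1956 when a line was left out. A pseudocount of 0.1 gave 2624, and moved the counts of the AOC3 and AOC11 pairs from 783 and 1147 to 1442 and 2071. A 1.5-fold threshold gave 3812, 1947 and 3479 genes. With it, 3 members passed in the AOC3 pair and 5 in the AOC11 pair, and of the different genes on the 4 lists 23 passed between the mice, against 12, and 12 in the AOC11 pair, against 6. Serpine2 was the 1 member that passed in the AOC11 pair, in place of 0, with a pseudocount of 0.1, without quantile normalization and with scaling by the median. Genes higher in AOC11-LN made up 61.2% of its calls (702 of 1147), 71.1% without quantile normalization (910 higher and 369 lower) and 70.2% with scaling by the median (889 and 378). With limma and Benjamini-Hochberg adjusted p-values, 29 genes were called between the mice, 19 of them higher in the AOC3 lines. Both lines of each mouse served as its replicates, so these p-values do not measure the spread between animals. Of the 133 values of single members under alternatives, 129 stayed on their side of the threshold. Chosen after seeing the data, a limma fit with site as replicate block called 31 genes between the mice (20 higher). The limma fit of both lymph node lines against both primary lines, also chosen then, had the mouse as block and 1 residual degree of freedom. It called 2 genes, and 405 of the 14155 genes tested had an unadjusted p under 0.05. Of the 12 list genes called between the mice, Itgb5 turned its sign without AOC3-LN (0.065, against -2.65 without AOC3), and Thbd, Prss23 and Serpinb6b were within the threshold without it. Serpine2 in AOC11 is the only member value that rests on under 100 estimated fragments.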
